A study of Homo sapiens with 5 samples.

Results

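The genes described here are developmental transcription factors outside the HOX clusters. The list holds 55 genes of 10 families (SOX, GATA, TBX, FOX, PAX, LHX, MSX, DLX, sine oculis and IRX), and its members were found by matching their symbols to the Ensembl identifiers of the count table. A row was found for 51 of the 55 members, among 30476 rows in all. The expression of SOX11, SOX21, IRX1 and IRX2 was therefore not analysed here. RNA-seq had been performed on 5 cultures of TOV21G, an established line of ovarian clear cell carcinoma that carries mutated ARID1A, a subunit gene of the SWI/SNF chromatin remodelling complex. There was 1 library of parental cells, and 4 libraries came from EZH2 inhibitor-resistant (EIR) clones 3 and 4, each sequenced once untreated and once treated with the EZH2 inhibitor GSK126. The EIR cells descended from the same line and had been kept in GSK126 at 5, 10, 15 and finally 20 uM before single clones were picked, so the ARID1A mutation was shared by every group and each clone stands for 1 outgrowth. The labels give no dose or duration for the treated cultures that were sequenced.

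EZH2 is the catalytic subunit of Polycomb repressive complex PRC2, which places a repressive mark on histone H3. Genes of developmental transcription factors are classic Polycomb targets: they lie in CpG-rich regions, carry the mark in tissues where they are silent, and lose it where they are used. Members of a family share a DNA-binding domain, the HMG box in SOX proteins, zinc fingers in GATA proteins, the T-box in TBX, the forkhead in FOX, the paired domain in PAX and a homeodomain in the remaining families, and they direct the formation of limbs, face, gut, heart, gonads and nervous system.

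Total counts were between 25479238 and 30764963 per library. The line's lineage genes PAX8 and ANXA4 had at least 3031 counts in every library, and the keratin genes KRT8 and KRT18 at least 4331. The leukocyte markers summed to between 38 and 88 counts and the endothelial markers to between 9 and 20. Of the fibroblast markers, COL1A2 had 245 counts in parental cells and between 3 and 29 in the EIR libraries, while DCN had 16 counts and then between 10 and 50, PDGFRB 3 and then between 4 and 16, and LUM 0 and then between 0 and 5. Further genes of the epithelial list differed between the clones: KRT19 had counts of 1763 and 2022 in clone 3 and of 0 and 7 in clone 4, EPCAM 426 and 498 against 0 and 1, and CDH1 had 108 and 148 against 2 and 4. In parental cells KRT19 had 112 counts, EPCAM 398 and CDH1 6. In these bulk cultures, fewer cells that use a gene and less RNA per cell cannot be told apart. Each clone gave a pair of libraries that share 1 origin, and the parental group had 1 library. The p-values of EIR against parental therefore measure the spread among the EIR libraries. In the comparisons of a clone with parental cells or with the other clone, they rest on the untreated and treated libraries within clones. Those p-values do not measure the spread between independent clones.

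Most members stayed on the same side of 30 counts in every library, though some changed under that cut, such as IRX4, TBX2 and GATA6. Of the 51 members, 20 had at least 30 counts in every library, namely SOX4, SOX9, SOX12, SOX13, GATA2, TBX3, TBX15, TBX18, FOXA1, FOXC1, FOXE1, FOXF2, PAX3, PAX6, MSX2, DLX5, SIX4, SIX5, IRX3 and IRX5. A further 21 stayed under 30 counts in every library, and 7 of these (SOX5, SOX18, TBX1, FOXF1, FOXL2, DLX4 and SIX2) had no more than 3 counts anywhere. The others of the 21 were SOX2, SOX7, SOX8, SOX15, GATA3, GATA6, TBX2, FOXA2, FOXC2, FOXD1, LHX4, LHX6, DLX3 and IRX4, with a highest count of 28. The remaining 10 members crossed 30 counts between libraries: SOX6, GATA4, FOXL1, FOXQ1, PAX9, LHX2, LHX9, MSX1, DLX1 and DLX2. Members at 3 counts or fewer numbered 19 in the parental library, 9 and 12 in untreated and treated clone 3, and 21 and 19 in untreated and treated clone 4. Clone 3 thus had more members above 3 counts than either parental cells or clone 4, by counts not scaled for depth. Over all genes, those with at least 10 counts numbered 15588 in parental cells and 16432 and 16151 in untreated and treated clone 3. They numbered 15857 and 16311 in untreated and treated clone 4. The share of all genes at 3 counts or fewer in each library is not given here. Summed over the 51 members, there were 749 reads per 1000000 in parental cells and between 410 and 499 in the EIR libraries, and SOX4, MSX2 and IRX3 had the most of these reads.

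**Figure D1:**
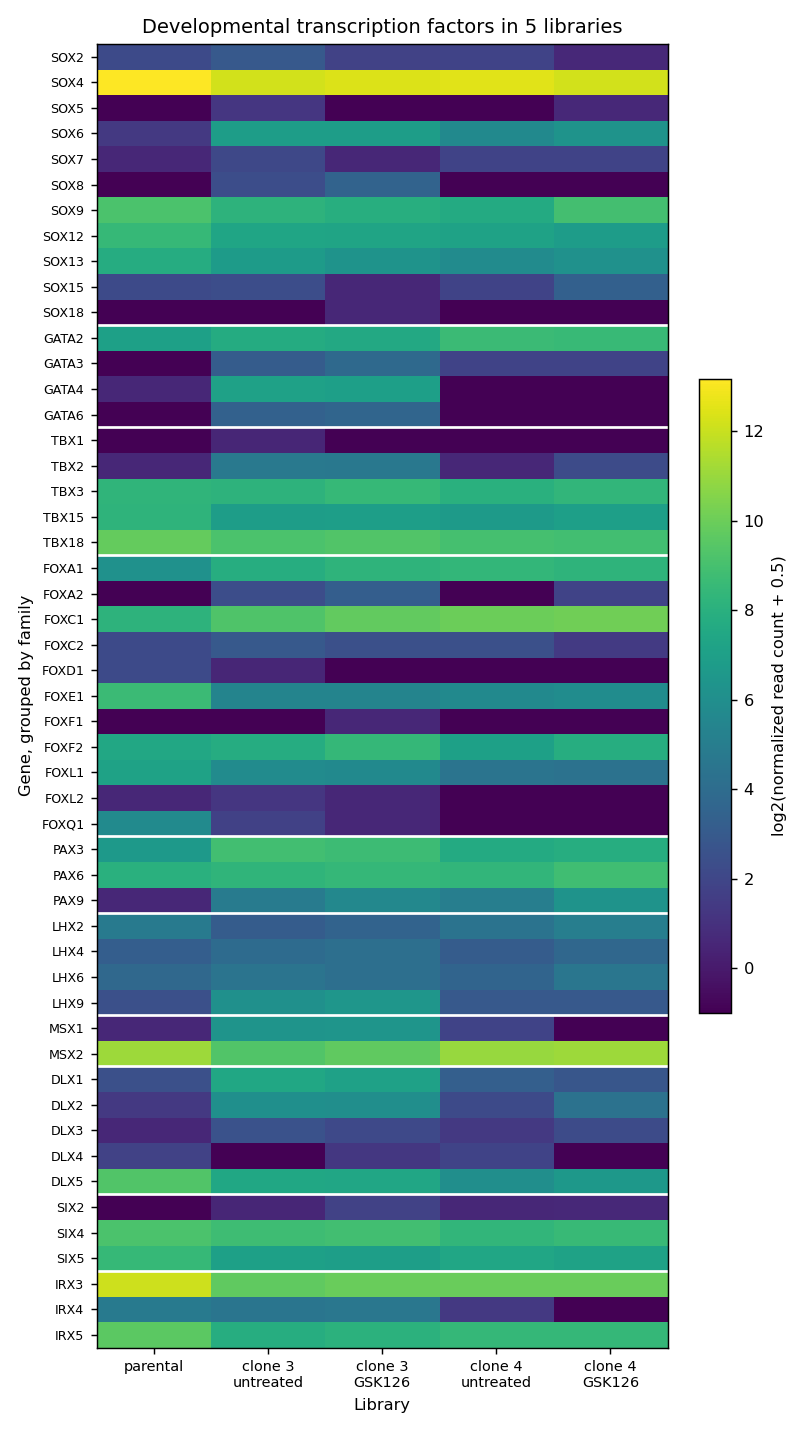
Heat map of log2(normalized read count + 0.5) for the 51 members with a row (vertical axis, grouped by family, white lines between families) in the 5 libraries (horizontal axis). SOX4, MSX2 and IRX3 were bright in every column, and the GATA4, MSX1, DLX1, DLX2 and LHX9 rows were brighter in the clone 3 columns than in the parental and clone 4 columns.

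Levels between genes are compared as reads per kilobase of the canonical transcript per 1000000 reads (RPKM). By this measure SOX4, a SOXC gene of neural and mesenchymal progenitors, was the highest member with a mean of 42.9 over the 5 libraries. MSX2, a homeobox gene of the limb, skull and reproductive tract, had a mean of 24.8, and IRX3, an Iroquois homeobox gene, had 21.4. The highest genes of the other families were FOXC1 at 6.73, DLX5 at 5.55, PAX6 at 4.19, TBX18 at 3.33, GATA2 at 2.69, SIX4 at 2.3 and LHX2 at 0.29 RPKM. No LHX gene therefore came near the levels of the leading genes of the other families.

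A member was called gained where it had 3 counts or fewer in parental cells and at least 30 in both libraries of a clone, and lost where the reverse held. By this description clone 3 gained 5 of the 19 members that could be gained (SOX6, GATA4, PAX9, MSX1 and DLX2), which is 26.3%, against 1.36% of all genes that could be gained and 4.44% of the protein-coding ones. Clone 4 gained SOX6 and PAX9, 2 of 19 members or 10.5%, against 0.597% of all genes and 1.75% of protein-coding genes. Gains in both clones were again SOX6 and PAX9, against 0.339% of all genes and 1.1% of protein-coding genes. FOXQ1 was lost in both clones, 1 of the 22 members that could be lost (4.55%), against 0.306% of all genes in clone 3, 0.895% in clone 4 and 0.224% in both. With 1 parental library these states have no replicate check, and intervals given for their ratios cover counting error alone. The member list was chosen with earlier results of these data known, so these shares are no independent test. Among the 57 other genes of the same families with a row, described below, FOXP2 alone met the gain rule in clone 3, and none met it in clone 4. The number of these genes that could be gained is not given here, so no share stands beside those above. FOXP2 had 0 counts in parental cells, 150 and 139 in clone 3, and 17 and 24 in clone 4.

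SOX6, a SOXD gene without an activation domain that acts in cartilage and red cell formation, lies on chromosome 11 from 15987995 to 16761138 on the minus strand (ENSG00000110693, GRCh37). It had 2 counts in parental cells, 126 and 119 in untreated and treated clone 3, and 52 and 73 in untreated and treated clone 4. All 4 EIR libraries were far above the parental one, and clone 3 lay above clone 4. The ratio of normalized counts to parental cells was 58.1 in clone 3 (95% exact counting interval 15.9 to 483) and 32.2 in clone 4 (8.73 to 269), with DESeq2 adjusted p of 7.063e-06 and 1.485e-04. C11orf58 overlaps SOX6 on the opposite strand and had 5434 counts in parental cells, where SOX6 had 2. Its counts in the EIR libraries were between 6969 and 9100.

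PAX9, a paired box gene of the pharyngeal pouches, teeth and thymus, lies on chromosome 14 from 37126773 to 37148567 on the plus strand (ENSG00000198807). It had 1 count in parental cells, 32 and 50 in untreated and treated clone 3, and 32 and 72 in untreated and treated clone 4. The clones overlapped each other, and neither overlapped the parental library. The ratio to parental cells was 38.9 in clone 3 (6.79 to 1560) and 53.6 in clone 4 (9.4 to 2140), with DESeq2 adjusted p of 0.0076 and 0.0029. Without the treated clone 3 library the adjusted p for clone 3 was 0.0750. SLC25A21 overlaps PAX9 on the opposite strand and rose as well, from 38 counts to between 104 and 204, and strand use in the counting is not given in the sources used here.

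FOXQ1, a forkhead gene of epithelia and hair follicles, lies on chromosome 6 from 1312333 to 1314993 on the plus strand (ENSG00000164379). It had 53 counts in parental cells, 3 and 1 in untreated and treated clone 3, and 0 in both clone 4 libraries. The level in parental cells was 27.9 times that of clone 3 (95% exact counting interval 10.3 to 106) and at least 17.1-fold that of clone 4, computed against a floor of 3 counts per library. FOXQ1 fell in both clones, with DESeq2 adjusted p of 0.0164 in clone 3 and 6.101e-04 in clone 4, but the clone 3 call was lost without its untreated library (0.1095), without its treated library (0.2169) and after GC correction (0.0645).

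**Figure D2:**
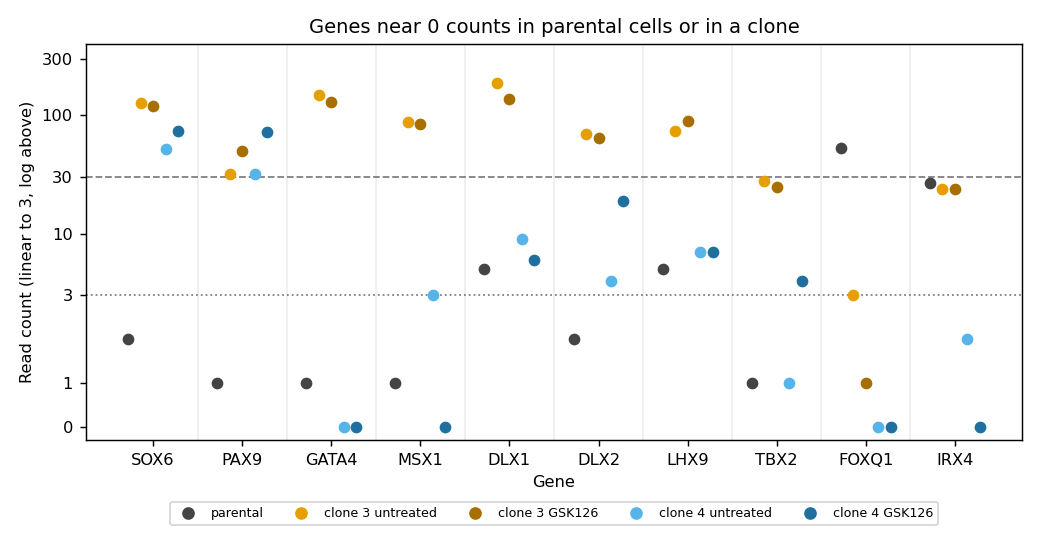
Read counts (vertical axis, linear up to 3 counts and logarithmic above) of 10 members in each library (colours); the dotted line marks 3 counts and the dashed line 30. SOX6 and PAX9 were above 30 in the 4 EIR libraries, GATA4, MSX1, DLX1, DLX2 and LHX9 only in the 2 clone 3 libraries, and FOXQ1 only in the parental library.

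The other gained members had reads mainly in clone 3. MSX1, a homeobox gene of the face, teeth and limb buds, had 1 count in parental cells, 88 and 85 in untreated and treated clone 3, and 3 and 0 in untreated and treated clone 4. DLX1, a distal-less homeobox gene of forebrain interneurons and the branchial arches, had 5 counts in parental cells, 189 and 137 in clone 3, and 9 and 6 in clone 4, so it stood just above the floor set for a gain. Its neighbour DLX2, with a similar role, had 2 counts in parental cells, 70 and 64 in clone 3, and 4 and 19 in clone 4. For each of these genes the clone 3 libraries lay above the others, and the treated clone 4 library held more DLX2 reads than the untreated one. The ratio of clone 3 to parental cells was 82.1 for MSX1 (14.5 to 3260) and 31.8 for DLX2 (8.63 to 265), and DLX1 rose by a fitted log2 fold change of 4.95 (SE 0.88). The DESeq2 adjusted p for clone 3 against parental were 9.915e-04 for MSX1, 3.908e-07 for DLX1 and 0.0021 for DLX2. Without the untreated or the treated clone 3 library, that of DLX2 was 0.0562 or 0.0604. None of these genes passed in clone 4 against parental, where the adjusted p over all settings tried, in DESeq2 and edgeR, were 0.4966 or higher for DLX1, 0.5789 or higher for MSX1 and 0.0857 or higher for DLX2.

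GATA4, a zinc finger gene of the heart, gut and gonad (ENSG00000136574), had 1 count in parental cells, 147 and 129 in untreated and treated clone 3, and 0 in both clone 4 libraries. The ratio of clone 3 to parental cells was 131 (23.3 to 5190), with a DESeq2 adjusted p of 9.853e-05. LHX9, a LIM homeobox gene required for the gonad, had 5 counts in parental cells, 73 and 89 in clone 3, and 7 in each clone 4 library. It rose in clone 3 by 3.95 on the log2 scale (SE 1.02, DESeq2 adjusted p 8.023e-04), and without the treated clone 3 library the adjusted p was 0.1201. Both genes again separated clone 3 from the other libraries without overlap. TBX2, a T-box repressor, followed the same order at a lower level, with 1 count in parental cells, 28 and 25 in clone 3, and 1 and 4 in clone 4, and did not pass in clone 3 (DESeq2 adjusted p 0.0653), where it passed in edgeR (0.0188) and after GC correction (0.0413). GATA6 had 0 counts in parental cells, 11 and 12 in clone 3 and 0 in clone 4, a level at least 3.64-fold that of parental cells. It received no adjusted p in DESeq2 and had one of 0.0450 for clone 3 in edgeR. The epithelial genes KRT19, EPCAM and CDH1 and the clear cell carcinoma marker NAPSA (2 counts in parental cells, 53 and 50 in clone 3, 6 and 4 in clone 4) were also higher in clone 3 than in clone 4, and their part in these results was not tested. Against parental cells these genes differed. EPCAM had 398 counts there and 426 and 498 in clone 3, whereas CDH1 had 6 and then 108 and 148.

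Promoter sequence is shown for the linked pair DLX1 and DLX2, whose levels rose together in clone 3, and for MSX1, with the same order of libraries. Each sequence holds the 250 bases before the RefSeq transcription start (GRCh38.p14), printed 5′ to 3′ on the gene's strand, with every CpG dinucleotide in capitals. They lie at chr2:172085257-172085506 (plus strand), chr2:172102901-172103150 (minus strand) and chr4:4859415-4859664 (plus strand).
DLX1: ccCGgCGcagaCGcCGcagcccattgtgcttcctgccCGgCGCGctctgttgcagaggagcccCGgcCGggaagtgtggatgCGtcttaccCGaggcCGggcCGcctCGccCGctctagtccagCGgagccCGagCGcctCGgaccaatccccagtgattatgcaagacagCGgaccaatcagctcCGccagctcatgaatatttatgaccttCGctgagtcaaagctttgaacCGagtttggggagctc
DLX2: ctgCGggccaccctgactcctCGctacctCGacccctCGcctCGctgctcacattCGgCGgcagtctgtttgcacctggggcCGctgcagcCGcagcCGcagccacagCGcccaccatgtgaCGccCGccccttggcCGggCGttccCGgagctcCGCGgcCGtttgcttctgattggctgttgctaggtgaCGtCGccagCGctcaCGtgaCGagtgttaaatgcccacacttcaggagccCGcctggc
MSX1: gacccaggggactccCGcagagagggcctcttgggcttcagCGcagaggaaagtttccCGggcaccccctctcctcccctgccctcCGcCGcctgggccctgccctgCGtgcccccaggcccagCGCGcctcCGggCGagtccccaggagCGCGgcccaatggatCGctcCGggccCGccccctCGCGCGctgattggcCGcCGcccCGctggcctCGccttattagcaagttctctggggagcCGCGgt
These windows held 23, 25 and 24 CpG sites, with a GC content of 63.6%, 68% and 74% and an observed to expected CpG ratio of 0.91, 0.89 and 0.72.

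In EIR against parental libraries, 18 of the 51 members passed the DESeq2 threshold (adjusted p under 0.05), 6 higher and 12 lower in EIR cells. SOX6, FOXA1, FOXC1, PAX3, PAX9 and DLX2 rose, and SOX4, SOX12, SOX13, TBX15, TBX18, FOXE1, FOXL1, FOXQ1, DLX5, SIX5, IRX3 and IRX5 fell. An adjusted p was given to 34 members, which makes 52.9% of those, beside 25.5% of all 16288 genes tested. By direction, 17.6% of the 34 were higher, beside 12.4% of all genes, and 35.3% were lower, beside 13.2%. Among all tested genes with a transcript GC content of at least 50%, which 41 of the 51 members had, 4.53% were called higher and 21.2% lower. The filter that decides which genes receive an adjusted p uses the mean over all libraries, so members with reads in a single group entered through that group. The median log2 fold change was -0.25 over the 34 members and 0.0 over all genes tested. Over the tested genes with a transcript GC content of at least 50%, it was -0.29. A group of 10 members kept the call under every alternative that gave an adjusted p: SOX4, SOX6, FOXA1, FOXC1, FOXE1, FOXQ1, PAX9, DLX5, IRX3 and IRX5. The call of DLX2 (adjusted p 0.0462) held in 5 of 12 settings, and was lost in edgeR (0.2070), with the libraries of each clone summed (0.1111), with a low count filter (0.0568), with no independent filtering (0.0860), and without either clone 3 library or the treated clone 4 library (0.1304, 0.1288 and 0.0544). That of PAX3 (0.0157) held in 8 of 12 settings, and was lost in edgeR (0.1290), with the libraries of each clone summed (0.0655) and without either clone 3 library (0.0502 and 0.0558).

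Clone 3 against parental cells gave 21 members, 10 higher and 11 lower, which is 61.8% of the 34 with an adjusted p, beside 29.2% of all genes tested (14.7% higher and 14.5% lower). Clone 4 against parental cells gave 20 members, 6 higher and 14 lower, or 58.8% of 34, beside 32.9% of all genes (14.7% higher and 18.3% lower). The clone comparisons share the parental library, so their values are given side by side and their likeness is not counted as a result. By family in clone 3, SOX had 1 gene higher and 3 lower, FOX 2 higher and 2 lower, PAX 2 higher, DLX 2 higher and 1 lower, MSX 1 each way, GATA and LHX 1 higher each, TBX and sine oculis genes 1 lower each, and IRX 2 lower. In clone 4, SOX had 1 higher and 3 lower, FOX 2 higher and 3 lower, PAX 2 higher, GATA 1 higher, TBX and sine oculis genes 2 lower each, IRX 3 lower and DLX 1 lower, with none of the LHX or MSX genes called.

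**Figure D3:**
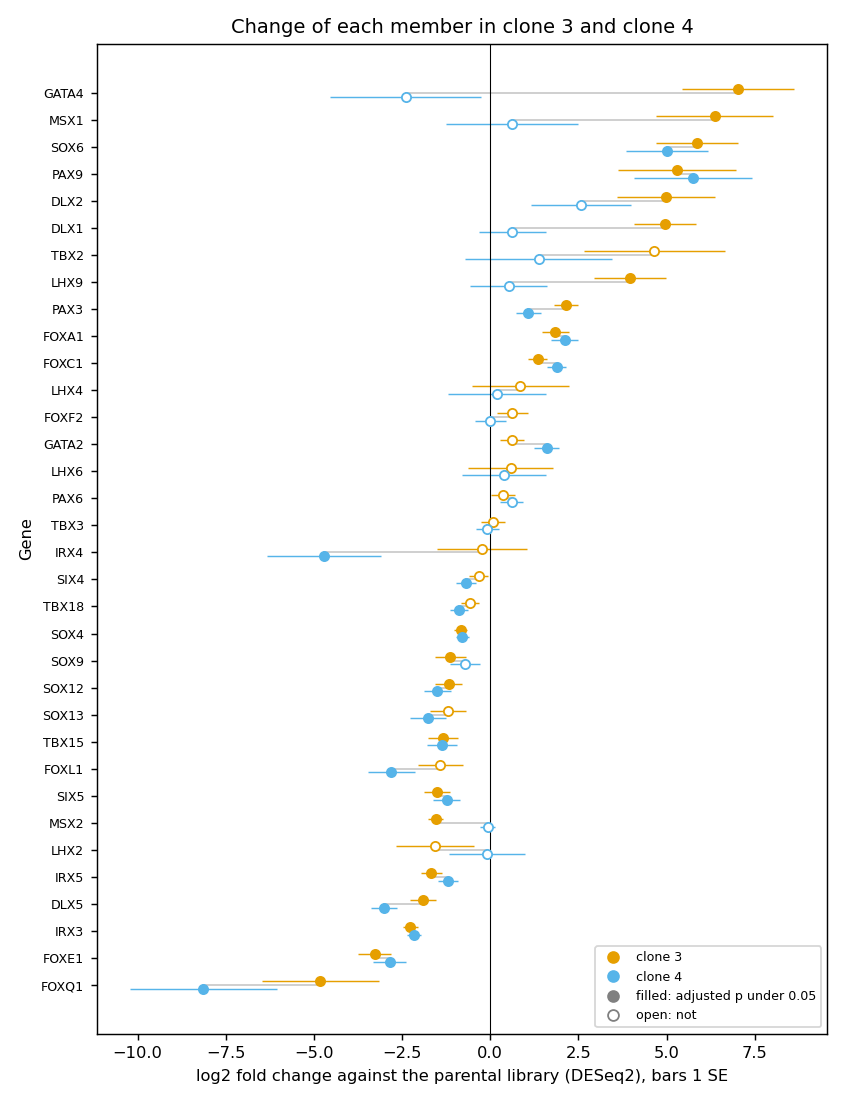
DESeq2 log2 fold change against the parental library (horizontal axis, bars 1 SE) for the 34 members with an adjusted p (vertical axis), in clone 3 (orange) and clone 4 (blue); filled points passed an adjusted p of 0.05. GATA4, MSX1, DLX1 and LHX9 were filled in clone 3 only, IRX4 and GATA2 in clone 4 only, and IRX3, FOXE1, DLX5 and FOXQ1 were filled on the lower side in both.

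Among genes with reads in every library, FOXA1, FOXC1 and PAX3 rose in EIR cells. FOXA1, a pioneer factor that opens chromatin for hormone receptors, had 72.5 normalized counts in parental cells, 224 and 300.4 in untreated and treated clone 3, and 336 and 291 in untreated and treated clone 4. Its log2 fold change in EIR cells was 1.99 (SE 0.36, DESeq2 adjusted p 1.102e-06). FOXC1, a forkhead gene of mesoderm, eye and skull, had 287 normalized counts in parental cells, 605 and 862 in clone 3, and 1022 and 1097 in clone 4. Both genes were higher in every EIR library than in parental cells. The log2 fold change of FOXC1 was 1.64 (SE 0.38, DESeq2 adjusted p 1.933e-04). PAX3, a paired box gene of neural crest and muscle, had 101 normalized counts in parental cells, 464 and 423 in clone 3, and 200.4 and 224 in clone 4. PAX3 was highest in clone 3 and lowest in parental cells, with no overlap, and its log2 fold changes were 2.14 (SE 0.34) in clone 3 and 1.08 (SE 0.35) in clone 4, with DESeq2 adjusted p of 1.363e-08 and 0.0088. The clone 4 call of PAX3 was lost without either clone 3 library (0.0867 and 0.0902) or the treated clone 4 library (0.0757).

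The Iroquois genes IRX3 and IRX5, which act in limb, heart and nervous system patterning and lie 644 kb apart on chromosome 16, fell in EIR cells. IRX3 had 4370 normalized counts in parental cells, 832 and 987 in untreated and treated clone 3, and 957 and 983 in untreated and treated clone 4. IRX5 had 787 in parental cells, 223 and 272 in clone 3, and 341 and 349 in clone 4. In neither gene did an EIR library come near the parental level. The log2 fold changes in EIR cells were -2.22 for IRX3 (SE 0.19, DESeq2 adjusted p 5.880e-29) and -1.41 for IRX5 (SE 0.34, DESeq2 adjusted p 4.015e-04). CRNDE, a long noncoding RNA gene 1.68 kb from IRX5 on the opposite strand, fell with it from 888 counts to between 455 and 609. IRX4, an Iroquois gene of the heart ventricle on chromosome 5, fell in clone 4. It had 27 counts in parental cells, 24 in each clone 3 library, and 2 and 0 in clone 4, and parental cells had 26.2 times the level of clone 4 (95% exact counting interval 6.59 to 227). The clone 4 call of IRX4 (DESeq2 adjusted p 0.0144) was lost without the treated clone 4 library (0.1191) and without the untreated clone 3 library (0.0829), and the clone 4 against clone 3 difference missed the threshold (0.0529) but passed in edgeR (0.0198) and without the treatment covariate (0.0175).

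DLX5, a distal-less gene of bone and limb, had 637 normalized counts in parental cells, 176 and 166 in clone 3, and 63.1 and 95.2 in clone 4. It fell by 1.9 on the log2 scale in clone 3 (SE 0.37) and by 3.01 in clone 4 (SE 0.38), with DESeq2 adjusted p of 5.178e-06 and 1.665e-13. DLX6, 9.36 kb from DLX5 on the opposite strand, went from 396 normalized counts in parental cells to between 94.2 and 168 in EIR libraries and fell in both clones. The DLX5 and DLX6 pair therefore moved downwards in clone 3, where the DLX1 and DLX2 pair rose.

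FOXE1, a forkhead gene of thyroid and palate, had 404 normalized counts in parental cells, 41.7 and 41.5 in clone 3, and 52.9 and 59.2 in clone 4. Its EIR libraries were tightly grouped around a mean of 48.8 ± 8.76 (SD, n = 4), and the log2 fold change was -3.05 (SE 0.39, DESeq2 adjusted p 5.560e-13). FOXL1, a forkhead gene of gut mesenchyme, had 144 normalized counts in parental cells, 55.5 and 52.4 in clone 3, and 21.4 and 20.1 in clone 4. The order was parental, clone 3, clone 4 without overlap. FOXL1 fell in clone 4 by 2.8 on the log2 scale (SE 0.66, DESeq2 adjusted p 1.826e-04) and did not pass in clone 3 (0.0790), where it passed in edgeR (0.0115). The EIR call of FOXL1, at an adjusted p of 0.0471, held in 3 of 12 settings. It was lost in edgeR (0.1005), after GC correction (0.0789), with the libraries of each clone summed (0.1858), with a low count filter (0.0662), with no independent filtering (0.0877), with total count scaling (0.0605), and without the treated clone 3, treated clone 4 or untreated clone 4 library (0.0611, 0.0897 and 0.0914).

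SOX4, SOX12 and SOX13 fell in EIR cells, and SOX9 in clone 3. SOX4 had 9202 normalized counts in parental cells, 4741 and 5566 in untreated and treated clone 3, and 5979 and 4684 in untreated and treated clone 4. It fell by 0.81 on the log2 scale in EIR cells (SE 0.22, DESeq2 adjusted p 0.0020). SOX12, another SOXC gene, had 358 normalized counts in parental cells, 163 and 153 in clone 3, and 140.4 and 112 in clone 4. It fell by 1.33 (SE 0.34, DESeq2 adjusted p 7.693e-04), a call lost with the libraries of each clone summed (0.0633). SOX13, a SOXD gene like SOX6, moved the other way from SOX6, from 217 normalized counts in parental cells to 111 and 77.1 in clone 3 and 57 and 70.9 in clone 4, a fall of 1.45 (SE 0.49, DESeq2 adjusted p 0.0153). The SOX12 and SOX13 EIR libraries all lay under the parental one. The call of SOX13 did not hold after GC correction (adjusted p 0.0946), in edgeR (0.0703), with the libraries of each clone summed (0.1353), or without the treated clone 3 or the treated clone 4 library (0.0699 and 0.0603). ETNK2, 3.32 kb from SOX13 on the opposite strand, had 159 counts in parental cells and between 3 and 37 in the EIR libraries. SOX9, a regulator of cartilage and testis, had 573 normalized counts in parental cells, 289 and 233 in clone 3, and 202 and 497 in clone 4, where the treated library was well above the untreated one. SOX9 fell in clone 3 by 1.13 (SE 0.43, DESeq2 adjusted p 0.0300) and did not pass in clone 4 (0.2015), where 1 of 11 settings gave a call. The clone 3 call held in 5 of 11 settings. Among the settings that lost it were edgeR (0.0891), GC correction (0.0631) and the fits without either clone 3 library.

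In the T-box family, TBX15, a gene of skeletal and limb development, had 301 normalized counts in parental cells, 116 and 124 in clone 3, and 106 and 127 in clone 4. It fell in EIR cells by 1.35 on the log2 scale (SE 0.3, DESeq2 adjusted p 8.263e-05), a call lost with the libraries of each clone summed (0.0582). TBX18, a gene of the epicardium and ureter, had 900.4 normalized counts in parental cells, 568 and 644 in clone 3, and 509 and 473 in clone 4. TBX15 overlapped between the clones, and TBX18 was lowest in clone 4. TBX18 fell in clone 4 by 0.88 (SE 0.25, DESeq2 adjusted p 0.0023) and did not pass in clone 3 (0.0672), where it passed in edgeR (0.0229) and after GC correction (0.0058). Its EIR call (0.0280) did not hold in edgeR (0.0737), with the libraries of each clone summed (0.2352), with no independent filtering (0.0522), or without the untreated clone 3, untreated clone 4 or treated clone 4 library (0.0951, 0.1130 and 0.0562). TBX3, a T-box repressor, had 306 normalized counts in parental cells and between 259 and 356 in EIR cells, a log2 fold change of -0.0 (SE 0.29).

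SIX5, a homeobox gene beside the myotonic dystrophy gene DMPK, had 365 normalized counts in parental cells, 133 and 124 in clone 3, and 167 and 145 in clone 4. It fell by 1.36 on the log2 scale in EIR cells (SE 0.31, DESeq2 adjusted p 1.713e-04), but not after GC correction (-0.78, adjusted p 0.1325). Its transcript had a GC content of 68%. The neighbouring genes DMPK at 0.457 kb, FBXO46 at 33.9 kb and QPCTL at 60.8 kb also fell, by the test without GC correction. SIX4, a gene of muscle and sense organs, had 564 normalized counts in parental cells, 433 and 463 in clone 3, and 319 and 378 in clone 4. Its clone 4 call, a fall of 0.69 (SE 0.28, DESeq2 adjusted p 0.0434), held in 5 of 11 settings. Among the settings that lost it were those without any 1 of the 4 EIR libraries.

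Members with reads that did not pass against parental cells included PAX6, an eye and brain gene, with 251 normalized counts in parental cells, 303 and 342 in clone 3, and 320.4 and 445 in clone 4. EIR and parental libraries differed by 0.49 on the log2 scale (SE 0.32, DESeq2 adjusted p 0.2792). FOXF2, a forkhead gene of gut mesenchyme, had 180.3 in parental cells and between 131 and 343 in EIR libraries, and passed in clone 3 after GC correction (adjusted p 0.0495). LHX2, the highest LHX gene per length, had 28.2 in parental cells, 8.33 and 10.9 in clone 3, and 20.3 and 32.8 in clone 4, with a DESeq2 adjusted p of 0.3241 in clone 3. FOXF2 libraries lay on both sides of the parental value, and LHX2 was lower in both clone 3 libraries without passing.

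Neighbouring members did not always change in the same direction. On chromosome 6, FOXQ1, FOXF2 and FOXC1 stand on the plus strand in this order, with 74.8 kb between FOXQ1 and FOXF2 and 214 kb between FOXF2 and FOXC1. FOXQ1 went to 3 counts or fewer, FOXF2 did not pass, and FOXC1 rose. The 250 bases before the start of FOXC1 (chr6:1609665-1609914) and FOXQ1 (chr6:1311848-1312097), both on the plus strand of GRCh38.p14 per RefSeq, are shown because these neighbours went opposite ways, again with CpG sites in capitals.
FOXC1: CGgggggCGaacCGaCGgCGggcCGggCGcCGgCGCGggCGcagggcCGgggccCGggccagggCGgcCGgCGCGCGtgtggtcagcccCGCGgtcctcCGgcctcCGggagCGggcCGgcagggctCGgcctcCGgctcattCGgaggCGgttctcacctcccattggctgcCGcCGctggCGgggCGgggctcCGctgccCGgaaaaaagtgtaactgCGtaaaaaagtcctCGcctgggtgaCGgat
FOXQ1: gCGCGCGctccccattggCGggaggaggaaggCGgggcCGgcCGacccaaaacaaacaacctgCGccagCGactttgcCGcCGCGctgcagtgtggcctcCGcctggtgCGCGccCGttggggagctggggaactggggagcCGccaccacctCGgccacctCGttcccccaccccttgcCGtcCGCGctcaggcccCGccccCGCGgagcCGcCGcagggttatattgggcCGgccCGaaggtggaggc
Both windows were CpG-rich, with 37 and 29 sites and observed to expected ratios of 1.01 and 0.85. FOXL1 and its neighbour FOXC2, 6.64 kb away on chromosome 16, also differed, since FOXC2 had between 2 and 8 counts in every library. FOXA1 and PAX9, 910 kb apart on chromosome 14, both rose. TTC6, which overlaps FOXA1 on the opposite strand, rose from 7 counts to between 55 and 69, and MIPOL1 at 10.4 kb from 1035 to between 2009 and 2826. METAP1D, 2.31 kb from DLX1, had 119 counts in parental cells, 337 and 330 in clone 3, and 304 and 299 in clone 4. It rose in both clones, whereas DLX1 passed in clone 3 only.

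**Figure D4:**
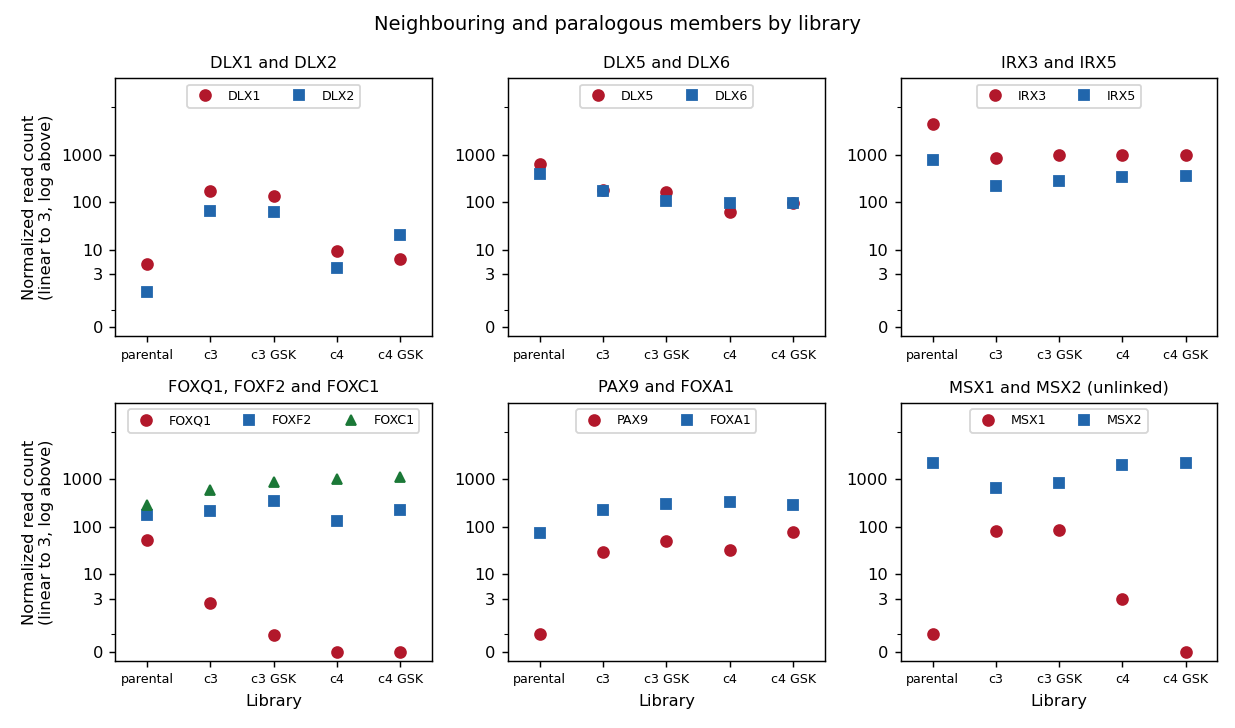
Normalized read counts (vertical axes, linear up to 3 and logarithmic above) of linked members, of DLX5 with DLX6 and of the unlinked paralogs MSX1 and MSX2, in the 5 libraries (horizontal axes; c3 and c4 are the clones, GSK marks GSK126 treatment). IRX3 and IRX5 dropped together, DLX1 and DLX2 were high in clone 3, and FOXQ1 and FOXC1 went opposite ways.

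Clone 4 was then compared with clone 3 directly, without the parental library and with treatment as a covariate. Of the 51 members, 7 passed in DESeq2 (2 higher and 5 lower in clone 4), which is 20.6% of the 34 with an adjusted p, beside 9.81% of all genes tested (3.3% higher and 6.52% lower). The lower genes were MSX1 (log2 fold change -5.88, SE 1.13, DESeq2 adjusted p 6.315e-06), DLX1 (-4.34, SE 0.63, 4.379e-10), LHX9 (-3.42, SE 0.78, 3.125e-04), DLX2 (-2.70, SE 0.85, 0.0186) and PAX3 (-1.07, SE 0.3, 0.0050). MSX2 had 2190 normalized counts in parental cells, 645 and 851 in untreated and treated clone 3, and 1994 and 2186 in untreated and treated clone 4. Clone 4 was thus at the parental level of MSX2 and clone 3 was under it, the reverse of its paralog MSX1. The MSX2 difference between the clones was 1.49 on the log2 scale (SE 0.2, DESeq2 adjusted p 7.124e-12). GATA2, a zinc finger gene of blood and endometrium, had 129.9 normalized counts in parental cells, 210.2 and 188 in clone 3, and 408 and 379.8 in clone 4. It was higher in clone 4 than in clone 3 by 0.98 (SE 0.3, DESeq2 adjusted p 0.0163), and higher than in parental cells by 1.6 (SE 0.35, 3.458e-05). GATA4 did not pass in this comparison (DESeq2 adjusted p 0.1374) although clone 3 had 147 and 129 counts and clone 4 had 0 in both libraries, at least 42.4-fold more in clone 3. It passed in edgeR (7.084e-04) and without the treatment covariate (1.628e-08). MSX1, MSX2 and DLX1 kept the call in all settings tried. Without a clone 3 library the calls of GATA2 (adjusted p 0.1096 and 0.2517), PAX3 (0.0629 and 0.1716) and DLX2 (0.3582 and 0.3953) were lost, that of DLX2 also without the untreated clone 4 library (0.1190), and that of LHX9 without the treated clone 3 library (0.0710).

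GSK126 treatment of the EIR clones gave 0 of the 51 members past the threshold in DESeq2, beside 0.00335% of all genes tested (1 gene). At an unadjusted p under 0.05 there were 0 members in DESeq2, beside 117 of all genes with 29847 tested, and 0 members in edgeR. With the clone as replicate block there were 1 in DESeq2 (FOXF2) and 2 in edgeR (FOXF2 and PAX9). The matching numbers over all genes are not given for edgeR or the blocked fits, so these counts have no background. FOXF2 had 216 and 343 normalized counts in untreated and treated clone 3 and 131 and 229.6 in untreated and treated clone 4. PAX9 had 29.6 and 49.4 in clone 3 and 32.6 and 76.2 in clone 4. Both genes were higher in the treated library of each clone. Of 34 members whose mean normalized count reached 10, 14 were higher in the treated library of both clones. This is 41.2%, beside 27.8% of all 16248 genes with such a mean. Lower in both clones were 5 (14.7%, beside 21.3%). The others did not move the same way in both clones, and of these GATA4 and FOXQ1 had 0 counts in both clone 4 libraries. A change of at least 2-fold between the treated and the untreated library was seen in 1 of the 34 in clone 3 (2.94%, beside 3.05% of all genes) and in 7 in clone 4 (20.6%, beside 7.91%). These shares compare single libraries and carry no test. Among the 7 in clone 4, the counts in the untreated and treated library were 3 and 0 for MSX1 and 2 and 0 for IRX4. They were 1 and 4 for TBX2 and 4 and 19 for DLX2. MSX1, IRX4 and TBX2 reached the mean of 10 through reads in other libraries.

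Change against parental cells followed the GC content of the transcript across genes whose mean normalized count reached 100. The median log2 ratio of the EIR libraries to the parental one was between 0.34 and 0.5 for transcripts under 40% GC and between -0.68 and -0.49 at 65% GC or more. Members had a median GC content of 56.6%, against 47.8% for all genes whose mean normalized count reached 10. After GC correction, 16 members passed in EIR against parental, 7 higher and 9 lower. The share of all genes called after this correction is not given here, so these counts describe the members alone. SOX13, FOXL1 and SIX5 lost the call, and GATA2 passed. SOX6 and PAX9, with GC contents of 41.8% and 43.4%, and FOXQ1, with 63.2%, kept theirs in EIR against parental.

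**Figure D5:**
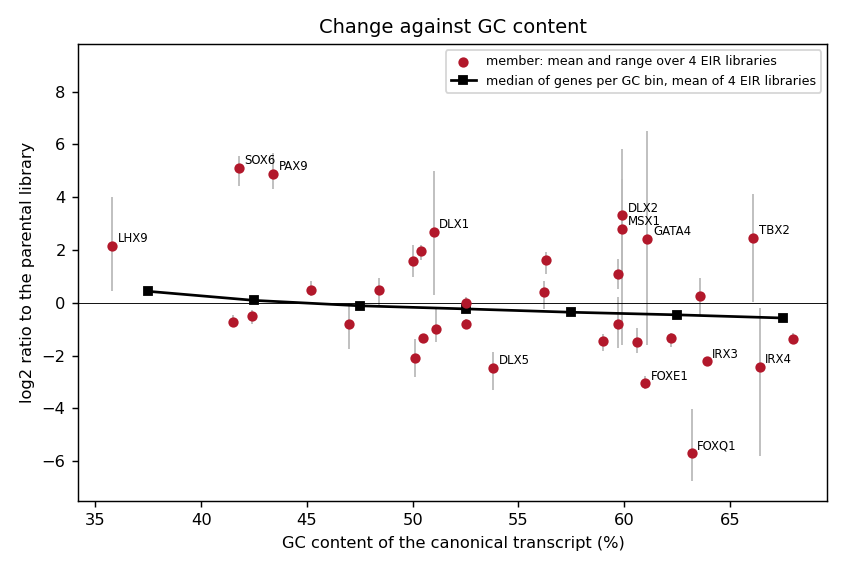
log2 ratio to the parental library (vertical axis) against GC content of the canonical transcript (horizontal axis) for 34 members, as the mean (red points) and range (grey lines) over the 4 EIR libraries; black squares give the median per GC bin over genes whose mean normalized count reached 100, averaged over the EIR libraries. The bin medians stay between -0.68 and 0.5 in every library, and SOX6, PAX9, IRX3, FOXE1 and FOXQ1 lie far outside it.

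A promoter window from RefSeq (GRCh38.p14) was matched for 35 of the 55 members. The windows spanned 250 bases before to 50 after the start, and genes with several windows are counted by their median CpG ratio and by a motif in any window. An observed to expected CpG ratio of at least 0.6 was found in 31 of the 35 members (88.6%), in 47.9% of all genes and in 64.1% of protein-coding genes. The homeodomain core motif TAATTA, searched on both strands, occurred in 1 member (2.86%), MSX2, and in 5.95% of all genes. The TATA motif TATAAA occurred in 4 members (11.4%), SOX6, SOX21, GATA3 and LHX6, and in 14% of all genes. SOX6 had the lowest CpG ratio of the members with a window, at 0.15 over its 5 windows. Windows were not matched for SOX7, SOX8, SOX9, SOX11, SOX15, SOX18, GATA4, TBX2, TBX3, TBX15, FOXA2, FOXC2, FOXF1, FOXL1, DLX3, DLX4, DLX5, SIX5, IRX3 and IRX5.

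Other genes of the same families, taken by name, had a row in 57 of 74 cases. Of these, 3 rose and 6 fell in EIR against parental (30% of the 30 with an adjusted p, beside 25.5% of all genes), 3 rose and 8 fell in clone 3 (35.5% of 31, beside 29.2%), and 4 rose and 8 fell in clone 4 (40% of 30, beside 32.9%). FOXP2, a forkhead gene of the brain and lung, had 0 counts in parental cells, 150 and 139 in clone 3, and 17 and 24 in clone 4, and passed in each comparison with parental cells as well as between the clones (DESeq2 adjusted p 4.030e-05). FOXA3, a forkhead gene of liver and gut 94.7 kb from SIX5, had 149 counts in parental cells and between 10 and 16 in EIR libraries (DESeq2 adjusted p 4.565e-07). Its direction was the opposite of its paralog FOXA1. FOXD4 had 5 counts in parental cells and between 40 and 57 in EIR libraries, and is uncertain because near-identical copies of this gene share reads with it. Between the clones, ISL2 counts were 57 and 66 in clone 3, 12 and 8 in clone 4 (DESeq2 adjusted p 0.0255).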

How the data were processed

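Total RNA of 5 TOV21G cultures had been converted to libraries with a kit for stranded total RNA, per the labels. The authors aligned reads to hg19 with Bowtie2 and estimated counts per gene with RSEM (1.2.3 per the submitters' processing notes), and they deposited these RSEM expected counts, unnormalized, for 30476 Ensembl identifiers. All deposited values were whole numbers. Expected counts share out reads that match several genes, so close paralogs are less certain. Whether counting used the strand is not given in the sources used here.

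Symbols, positions, canonical transcript lengths and GC contents came from GENCODE 44 on GRCh37, which matched 29203 identifiers (95.8%). DESeq2 1.42.0 (R 4.3.3) was fitted to all genes with median-of-ratios size factors and a two-sided Wald test, and adjusted p under 0.05 (Benjamini-Hochberg over all genes) was called. EIR (n = 4) was compared with parental (n = 1), each clone (n = 2) with parental in 1 fit of 3 groups, clone 4 with clone 3 with treatment as covariate, and treated with untreated EIR. Groups came from the sample titles. A fitted fold change against a group near 0 counts depends on the fit, so the ratio of normalized counts is given there with an exact 95% interval, for counting error only, or as a lower bound at 3 counts. The GC correction used the log2 deviation of each library from the gene's mean over libraries. A smooth curve through its medians in 40 GC bins was removed per library. The scripts were tested on simulated data.

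The clone number pairs the untreated and treated libraries: over 11564 genes, the difference between clones in untreated and treated libraries correlated with r = 0.862 (across genes that are no independent replicates). The members, the other family genes, the markers and the tests were chosen with earlier results of these data known. Every member is accounted for, and values in every library are given for the members gained, lost or called and for the highest of each family.

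Alternatives were edgeR 4.0.16 (quasi-likelihood), TMM or total count scaling, a low count filter, no independent filtering, GC correction, summed clones, each EIR library left out, and other thresholds for gained and lost.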

Additional observations from a re-analysis of the deposited data

Results flagged for a closer look

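For 7 members the change against parental cells differed between the clones by a direct DESeq2 test of clone 4 against clone 3. On the log2 scale clone 4 was lower for MSX1 (-5.88), DLX1 (-4.34), LHX9 (-3.42), DLX2 (-2.70) and PAX3 (-1.07), and higher for MSX2 (1.49) and GATA2 (0.98). None of the 34 members examined had 1 EIR library standing apart from the other 3 by Dixon's test.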

How the results depend on the processing

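No call changed direction under an alternative. Signs could change among members that did not pass, as for IRX4 in clone 3, whose log2 fold change went from -0.24 to 0.24 after GC correction. Of the 18 members called in EIR against parental, 11 passed with the pair of libraries summed per clone (SOX12, SOX13, TBX15, TBX18, FOXL1, PAX3 and DLX2 did not), and leaving out 1 library gave between 15 and 17. In clone 3 against parental, leaving out 1 library gave between 13 and 21 members, against 21, with 13 without the treated clone 3 library. In clone 4 against parental, it gave between 15 and 17, against 20. Clone 4 against clone 3 gave 7 members, but 13 in edgeR and 12 without the treatment covariate. Leaving out 1 library could not be fitted with that covariate, since 3 libraries leave no residual degree of freedom, and was run without it (chosen after seeing the data), which gave between 4 and 10, with 4 without the treated clone 3 library. In GSK126-treated against untreated EIR, leaving out 1 library gave between 0 and 0 members, and the clone number as replicate block gave 0 in both DESeq2 and edgeR, so the pairing changed no call. With a threshold of 100 counts for on, clone 3 gained 2 members and clone 4 and both clones gained 0, and the losses were 0. With 10 counts for on, 2 members were lost in clone 4. With a floor of 0 counts, gains were 0 in each clone and in both, and losses were 0 in clone 3 and in both clones. GC correction moved EIR against parental from 6 higher and 12 lower to 7 higher and 9 lower, and clone 3 from 10 and 11 to 13 and 9. The cause of these changes was not tested. The single parental library and counts near 0 limit the folds of gained members. In EIR against parental, edgeR gave 13 members. Shares of all genes called are not given for these alternatives, so their counts describe the members alone.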
